A study of Mus musculus with 8 samples.

Results

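The neurotrophins and their receptors were followed as 6 genes, Bdnf, Ntf3, Ntrk2, Ntrk3, Ngfr and Sort1, taken by symbol from the 31053 genes counted in 8 single-cell RNA sequencing (scRNA-seq) libraries of mouse brain. Neurotrophins are secreted growth factors that neurons use to maintain one another and to adjust their synapses. BDNF, the product of Bdnf, signals mainly through the receptor tyrosine kinase TrkB (Ntrk2), and NT-3, the product of Ntf3, mainly through TrkC (Ntrk3). The low-affinity receptor p75NTR (Ngfr) binds all neurotrophins, and sortilin (Sort1) binds their uncleaved precursors and steers BDNF through the secretory pathway; cortical neurons are known to supply the striatum with BDNF along their axons.

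Libraries came from the prefrontal cortex (PFC) and the striatum of wild-type (WT) and Setd1a+/- littermates, with 2 libraries per genotype and tissue, each made from 2 male mice pooled together. All mice were C57BL/6N and 8 to 10 weeks old by the labels, although the study's methods give an older age for these mice. The labels also name the striatal tissue NAc where the study's design names dorsal and ventral striatum. Setd1a encodes a histone H3K4 methyltransferase; the mutant allele is a frameshift in exon 15, made with CRISPR-Cas9 in hybrid zygotes and carried by every cell of the body in mice whose founders had been backcrossed. The comparison asks which transcripts of each cell type change when 1 copy of the gene is lost.

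The annotated cells numbered 8997 in the PFC and 14690 in the striatum, 1508 to 4361 per library, and the libraries held 15154268 to 26277553 unique molecular identifiers (UMIs, each 1 captured transcript molecule). The authors' cell type names were kept: 29 of 29 marker genes in the PFC and 33 of 35 in the striatum were highest in the type they mark, the exceptions being Gad2 and Slc32a1, which were higher in D1 medium spiny neurons (MSN) than in striatal cells annotated as interneurons (IN). Pairs of libraries shared 0.066 to 0.877% of the smaller library's cell barcodes. Setd1a itself was at 8.45 and 11.2 CPM (the gene's UMIs per 1000000 UMIs of the annotated cells) in the WT and 5.59 and 9.33 CPM in the Setd1a+/- libraries of the PFC, so the groups overlapped, though within each replicate number the Setd1a+/- library was the lower. In the striatum it was at 13.4 and 15.2 CPM in WT against 9.16 and 12.5 CPM in the mutant libraries, without overlap, and it passed the edgeR test in no cell type.

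Start sites of the members differ in number and base composition, which is shown first because the disrupted enzyme acts on histones near start sites. On GRCm38 (GENCODE vM21) Bdnf lies at chr2:109674700-109727007 (+), Ntf3 at chr6:126101412-126166910 (-), Ntrk2 at chr13:58806569-59133970 (+), Ntrk3 at chr7:78175959-78738012 (-), Ngfr at chr11:95568818-95587735 (-) and Sort1 at chr3:108284082-108361511 (+). RefSeq promoter windows of GRCm38.p6, 250 bases before to 50 after a start site, matched 4 of the 6 members: 7 windows of Bdnf, 2 of Ntf3, and 1 each of Ntrk2 and Ngfr; Ntrk3 and Sort1 were not matched. A CpG dinucleotide occurred 2 to 13 times in the Bdnf windows, 12 and 17 times in those of Ntf3, and 23 times in those of Ntrk2 and Ngfr, against a median of 7 over 32851 promoters. The CRE-like motif TCACGTCA was searched on both strands, as was the cAMP response element TGACGTCA. It was found in 1 of the 7 Bdnf windows, 38 to 31 bases before the start site, and in 0.441% of all promoters; TGACGTCA was in none of the members' windows and in 1.79% of all promoters. The match is a description of the letters and not of a bound site. Shown are that Bdnf window with the motif in capitals, the Bdnf window poorest in CpG, and the Ntrk2 window.
Bdnf chr2:109692186-109692485 (+): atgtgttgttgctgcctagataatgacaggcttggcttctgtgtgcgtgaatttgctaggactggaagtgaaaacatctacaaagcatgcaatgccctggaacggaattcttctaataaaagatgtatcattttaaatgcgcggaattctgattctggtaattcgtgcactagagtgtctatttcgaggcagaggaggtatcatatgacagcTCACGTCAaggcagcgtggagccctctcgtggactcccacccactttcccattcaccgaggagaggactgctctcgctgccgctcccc
Bdnf chr2:109709133-109709432 (+): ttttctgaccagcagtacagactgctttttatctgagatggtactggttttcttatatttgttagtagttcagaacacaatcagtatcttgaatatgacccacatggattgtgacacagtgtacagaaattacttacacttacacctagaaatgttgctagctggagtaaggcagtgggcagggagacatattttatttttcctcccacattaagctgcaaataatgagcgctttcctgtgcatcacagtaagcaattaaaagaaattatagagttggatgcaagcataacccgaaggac
Ntrk2 chr13:58806319-58806618 (+): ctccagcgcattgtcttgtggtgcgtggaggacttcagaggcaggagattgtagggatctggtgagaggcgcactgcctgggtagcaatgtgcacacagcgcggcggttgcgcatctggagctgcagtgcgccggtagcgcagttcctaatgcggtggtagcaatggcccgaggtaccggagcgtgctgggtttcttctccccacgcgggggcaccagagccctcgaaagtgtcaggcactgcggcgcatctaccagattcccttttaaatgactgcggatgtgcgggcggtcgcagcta
The libraries count transcripts near their 3′ ends, and the deposited counts are per gene. UMIs of Bdnf were therefore summed over all its start sites and UMIs of Ntrk2 over its full-length and truncated isoforms.

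Bdnf was a transcript of PFC excitatory neurons (EN). Its level, in CPM of the UMIs that a library's cells of 1 type held together, was 94.1 and 97.8 in the WT and 124.7 and 119.2 in the Setd1a+/- libraries, a mean of 109 ± 15.3 CPM (SD, n = 4 libraries of both genotypes, as for all levels below). The other 7 PFC types averaged 1.49 to 13.1 CPM, and the highest library among them, of astrocytes, was at 22.0 CPM. EN therefore stood apart from the next type by 8.32 times the mean level with no overlap of libraries, while the 7 lower types overlapped each neighbour in the order. EN held 97.7% of the 2108 Bdnf UMIs of the PFC with 30.8% of its cells. A Bdnf UMI was found in 31.3% of EN, at a median depth of 5732 to 9177.5 UMIs per cell and library, and in 0.354% of oligodendrocytes (Oligo), at 1888 to 2190.5 UMIs, a type that should lack the transcript. After thinning every cell to 1000 UMIs, 7.95% ± 0.674 of EN and 0.297% ± 0.346 of Oligo kept one. Droplets too small to be cells, of 10 UMIs or fewer, held Bdnf at 26.2 CPM when pooled over the PFC libraries.

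Among EN subtypes, which the authors named by superficial (SL) or deep layer (DL) and a marker gene, Bdnf ranged from 178 ± 64.7 CPM in SL-Myh7 to 8.44 ± 4.92 CPM in DL-Tshz2. SL-Myh7 neurons had 98.3 and 209.0 CPM in WT against 157.2 and 247.4 CPM in the Setd1a+/- libraries. DL-Nnat, DL-Etv1 and SL-Cux2 averaged 152, 144 and 136 CPM. These 4 subtypes overlapped one another, so no order among them was resolved. DL-Foxp2 neurons, the subtype with the most cells (743), were at 36.0, 22.5, 27.8 and 30.8 CPM in WT 1, WT 2, Setd1a+/- 1 and Setd1a+/- 2, below every library of those 4 subtypes. DL-Tshz2 neurons held 10 Bdnf UMIs in 304 cells, at 2.21 to 13.2 CPM and below every DL-Foxp2 library. DL-Pou3f1, with only 62 cells, was at 71.6 ± 41.4 CPM and overlapped its neighbours. Bdnf thus split the deep-layer subtypes, with DL-Etv1 and DL-Nnat high and DL-Foxp2 and DL-Tshz2 low.

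**Figure D1:**
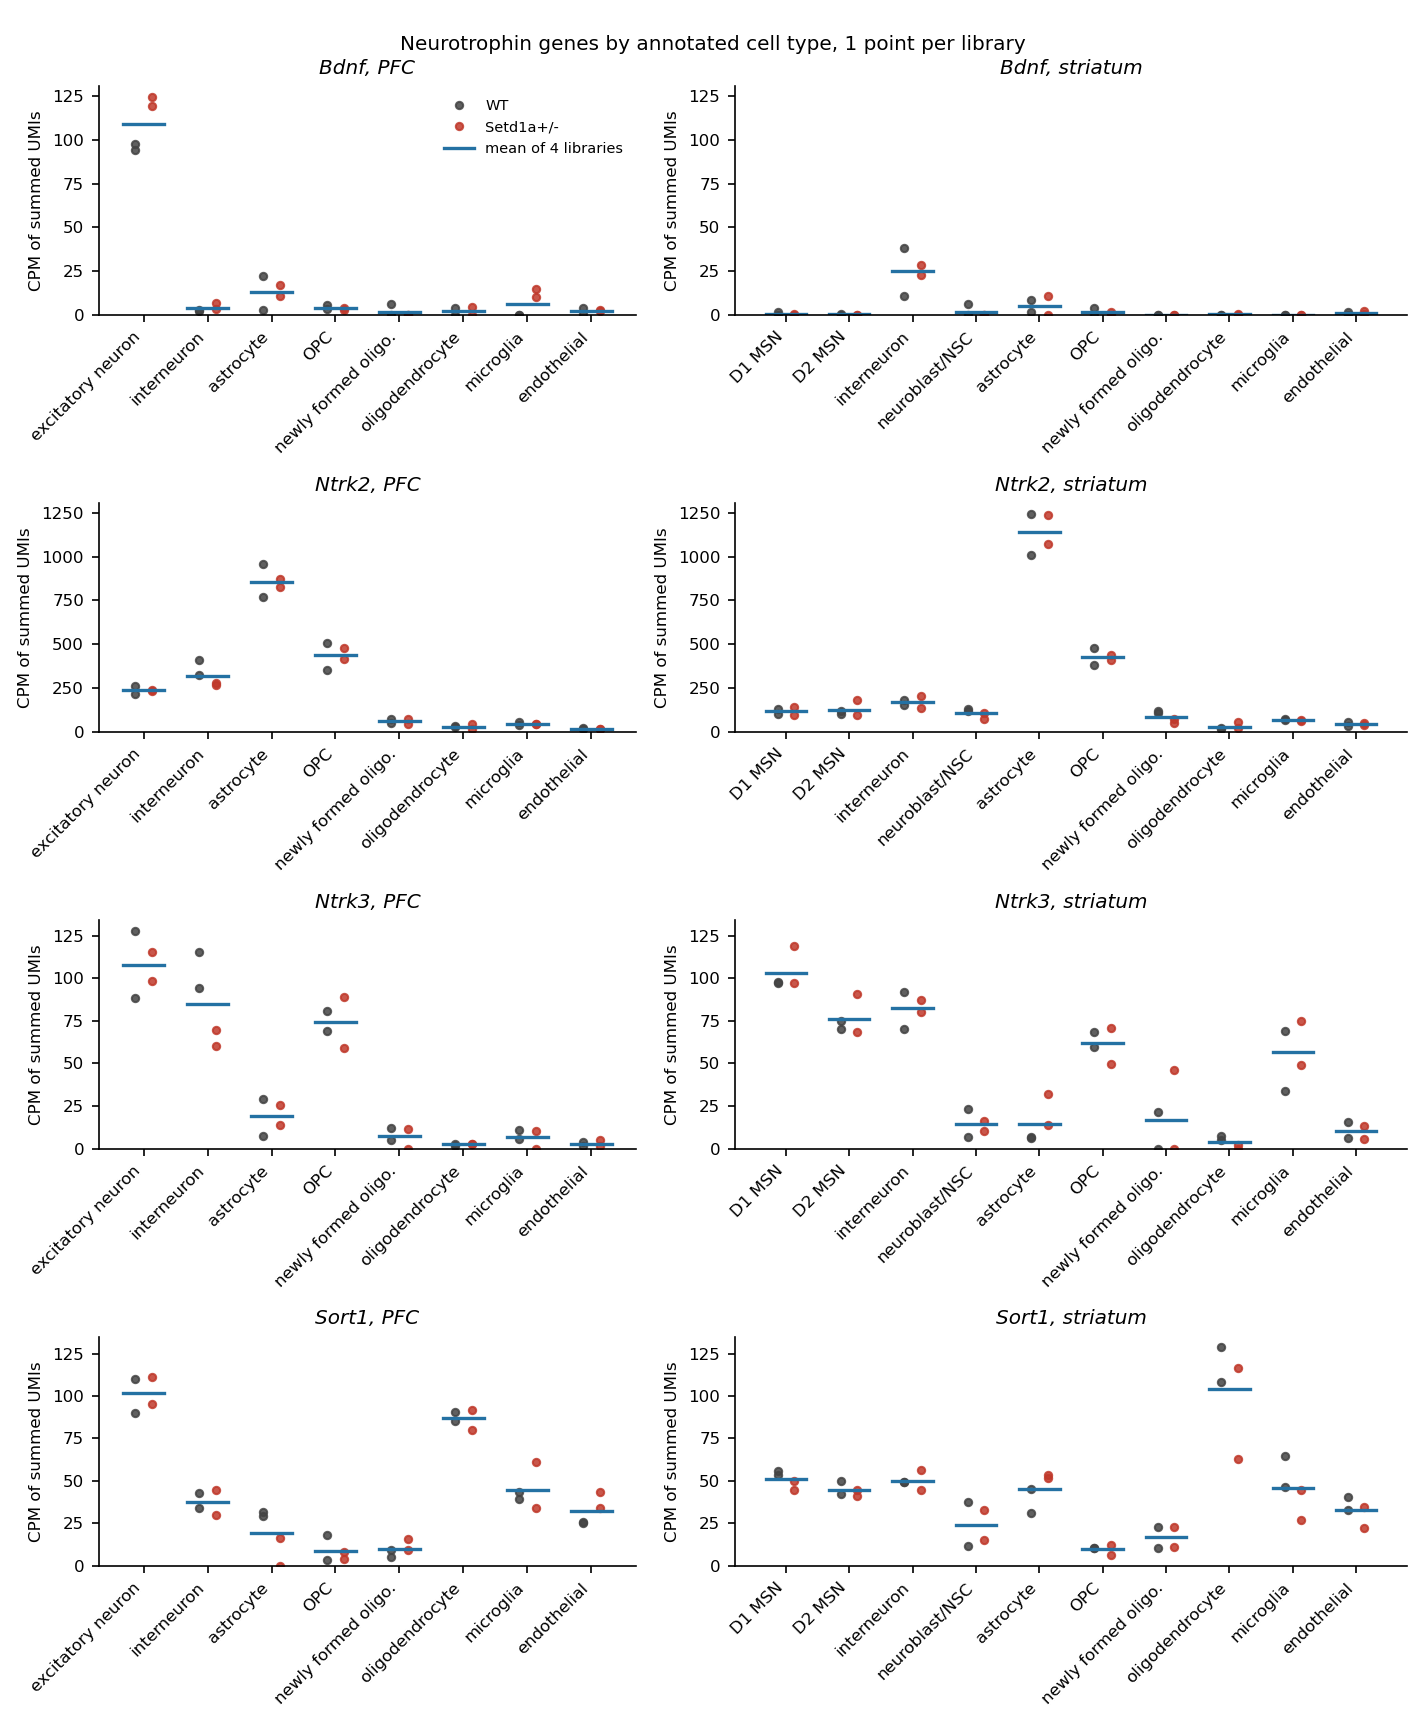
Levels of Bdnf, Ntrk2, Ntrk3 and Sort1 in CPM of summed UMIs (vertical axes, linear) in each annotated cell type of the PFC (left) and striatum (right), 1 point per library coloured by genotype and a line at the mean of the 4 libraries. Bdnf stands at 94.1 to 124.7 CPM in PFC excitatory neurons and at or below 37.9 CPM elsewhere, Ntrk2 is highest in astrocytes of both tissues, and Sort1 is high in excitatory neurons and oligodendrocytes.

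The striatum contained little Bdnf, 134 UMIs in 14690 cells. D1 MSN, the dopamine D1 receptor-expressing projection neurons of the striatum, held 7 UMIs in 3904 cells (0.44 CPM), and D2 MSN, which express the D2 receptor, held 1 UMI in 2451 cells (0.08 CPM). Striatal IN were the highest type at 37.9, 10.7, 28.3 and 22.6 CPM, a mean of 24.9 ± 11.4 CPM, above every library of the other types, though only just above 1 astrocyte library at 10.6 CPM. Microglia (Micro) and newly formed oligodendrocytes (NFO) held no Bdnf UMI, which allows up to 3.94 and 6.04 CPM at 3 UMIs per type.

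The Bdnf of striatal IN sat in cells with markers of excitatory neurons. Of 821 cells annotated as IN, 198 held a UMI of Slc17a7, Neurod6 or Neurod2, genes of cortical excitatory neurons, and these 198 held 109 of the 110 Bdnf UMIs (99.1%). Bdnf was at 37.6 to 117 CPM in them over the 4 libraries, with a mean of 80.6 CPM, and at 0 to 1.18 CPM in the other 623 cells. Slc17a7, which encodes the vesicular glutamate transporter VGLUT1, was found in 96.0% of the 198 cells. Gad1, the enzyme that makes GABA, was found in 10.1% of the 198 and in 80.4% of the 623 cells. The 623 cells without these markers held 1 Bdnf UMI, a mean of 0.294 CPM that lay between those of D2 and D1 MSN. This split was chosen after the values were seen and carries no test. Sort1 also differed across it, at 96.7 CPM with and 29.4 CPM without the markers, whereas Ntrk2 (200.5 and 151.7 CPM) and Ntrk3 (99.96 and 74.0 CPM) differed less. All 48 UMIs of Chat, which marks cholinergic interneurons, were in the 623 cells, in 18 of them. The 623 cells also held 7 of 8 Ngfr UMIs. They held 3019908 UMIs of all genes against 1388663 in the 198 cells, so no preference of Ngfr could be read.

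**Figure D2:**
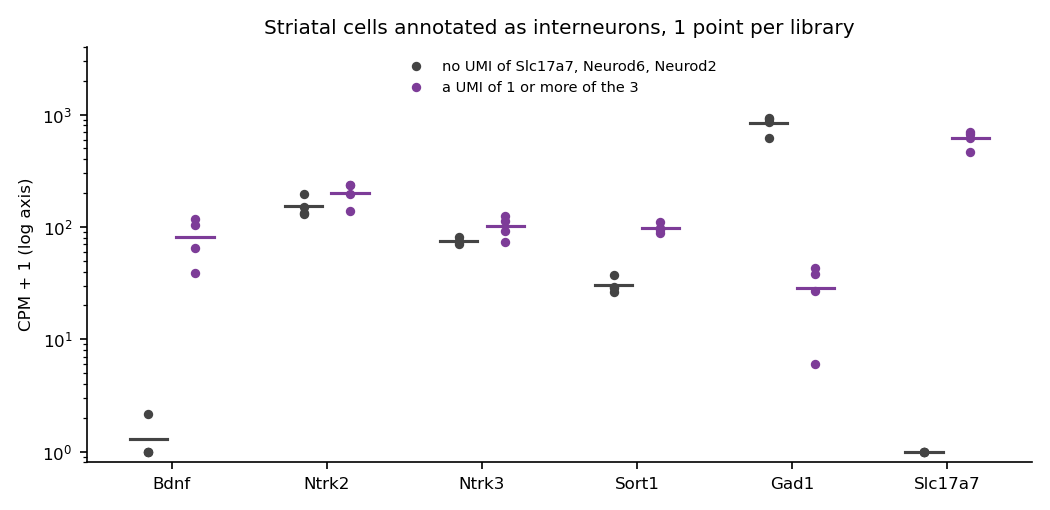
Levels (CPM + 1, log axis) of 4 members and of the marker genes Gad1 and Slc17a7 in striatal cells annotated as interneurons, split by whether a cell holds a UMI of Slc17a7, Neurod6 or Neurod2, 1 point per library with a line at the mean. Bdnf averages 80.6 CPM in the 198 cells with such a UMI and 0.294 CPM in the 623 without, and Slc17a7 is 0 in the latter by construction.

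Ntf3, the TrkC ligand, was rare, with 67 UMIs in all. In the PFC 44 of its 49 UMIs were in EN, and 35 of these 44 in SL-Myh7, a subtype of 194 cells. SL-Myh7 neurons had 25.9 and 12.5 CPM in WT against 27.7 and 32.9 CPM in the Setd1a+/- libraries, a mean of 24.7 ± 8.69 CPM. The highest library of any other subtype was at 5.14 CPM, so SL-Myh7 did not overlap them. A Ntf3 UMI was found in 15.5% of SL-Myh7 neurons, with 7.69 to 21.7% over libraries. SL-Myh7 was therefore the subtype with the highest mean level of both ligands, although only for Ntf3 was it set apart. The other EN subtypes held 3 UMIs each in DL-Foxp2, DL-Nnat and SL-Cux2 and 0 in the rest, and outside EN the PFC held 4 in Endo and 1 in IN. In the striatum D2 MSN held 9 of 18 UMIs (1.27 ± 1.13 CPM), IN 5, D1 MSN 2 and Astro and Endo 1 each, and no Ntf3 UMI was found in 5 PFC and 5 striatal types, which allows at most 3.33 and 6.04 CPM per type at 3 UMIs.

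**Figure D3:**
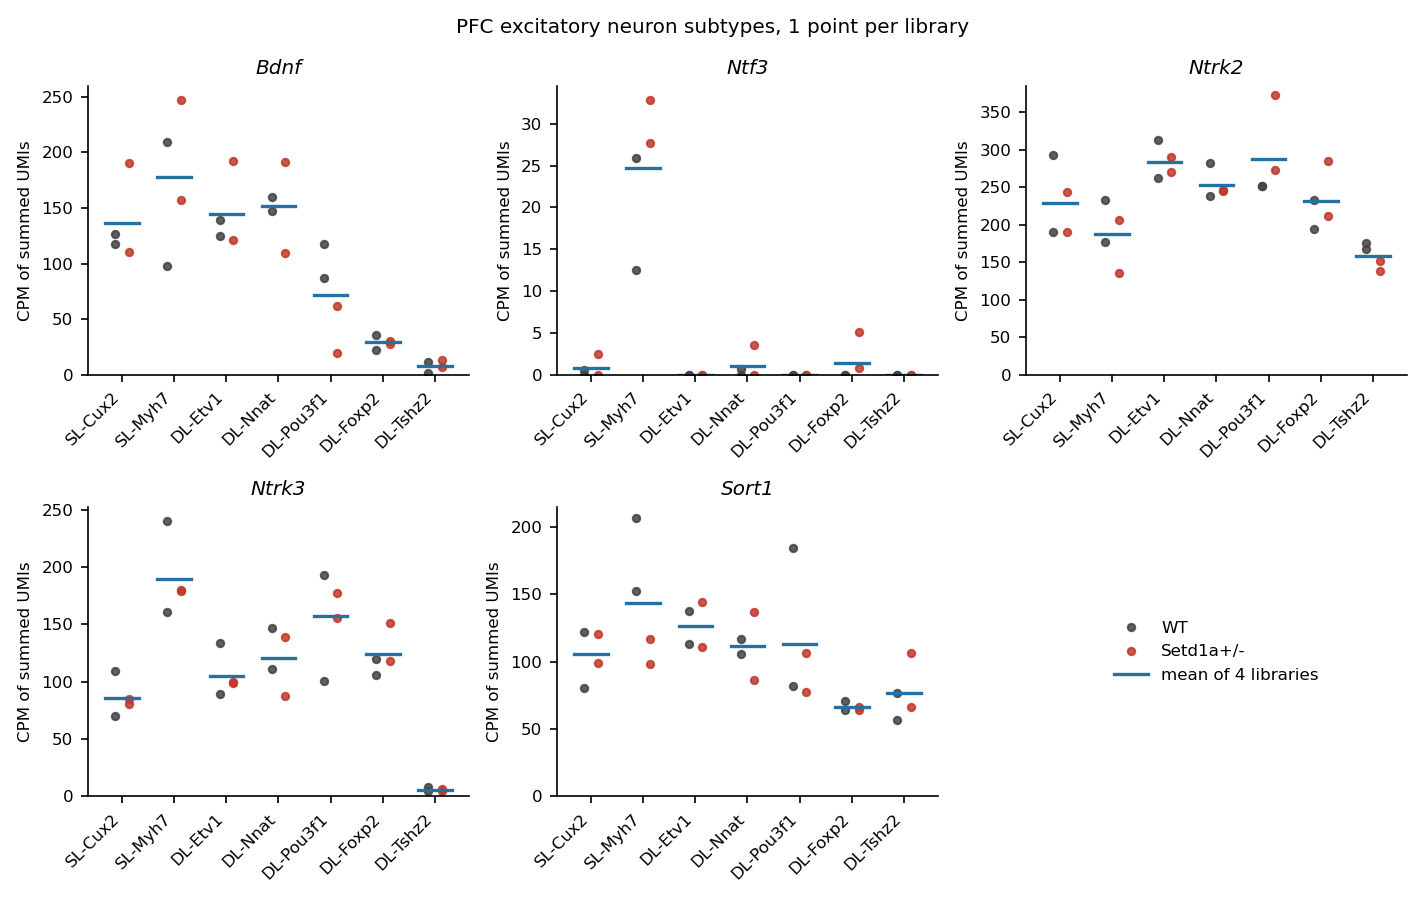
Levels (CPM of summed UMIs, linear axes) of 5 members in the 7 subtypes of PFC excitatory neurons, 1 point per library coloured by genotype with a line at the mean of 4 libraries. Ntf3 is at 12.5 to 32.9 CPM in SL-Myh7 and at most 5.14 CPM elsewhere, Bdnf is low in DL-Foxp2 and DL-Tshz2, and Ntrk3 is near 0 in DL-Tshz2.

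A Ntrk2 UMI was found in every type, and the level was highest in astrocytes (Astro) of both tissues. Droplets of 10 UMIs or fewer held Ntrk2 at 168.6 CPM in the PFC and 123.7 CPM in the striatum. Several types lay below these levels, and background UMIs in them were not told apart. PFC Astro had 958.0 and 769.8 CPM in WT against 871.6 and 824.4 CPM in the Setd1a+/- libraries, 856 ± 79.7 CPM, and 80.1% of them held a UMI. Striatal Astro had 1244.8 and 1008.8 CPM in WT against 1236.9 and 1072.4 CPM in the Setd1a+/- libraries, 1141 ± 119 CPM. Astrocytes are known to make mostly the truncated TrkB without the kinase, which these counts do not separate from the full-length form. In the PFC oligodendrocyte progenitor cells (OPC) followed at 438 ± 67.7 CPM, IN at 320 ± 64.3 CPM and EN at 236 ± 18.8 CPM. Astro did not overlap OPC, and IN did not overlap EN, but OPC and IN overlapped. The remaining PFC types lay at 58.5 CPM or lower, endothelial cells (Endo) being lowest at 16.8 ± 4.34 CPM. In the striatum OPC had 426 ± 43.3 CPM, IN 167 ± 31.3 CPM, D2 MSN 124 ± 39.9 CPM and D1 MSN 116 ± 22.2 CPM, and the 3 neuron types overlapped. NB, NFO, Micro and Endo of the striatum had means of 42.5 to 107.5 CPM, and striatal Oligo were lowest at 27.3 ± 19.7 CPM. EN subtypes ran from 159 ± 16.7 CPM in DL-Tshz2 to 287 ± 58.2 CPM in DL-Pou3f1, each overlapping its neighbours, and every DL-Tshz2 library was below every DL-Etv1 library.

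Ntrk3, the NT-3 receptor gene, followed neurons and OPC. Droplets of 10 UMIs or fewer held Ntrk3 at 53.0 CPM in the PFC and 66.9 CPM in the striatum. Several types had means below these levels, striatal OPC and Micro among them, and background UMIs in them were not told apart. In the PFC it was at 107.5 ± 17.5 CPM in EN, 84.8 ± 25.1 CPM in IN and 74.5 ± 13.2 CPM in OPC, which overlapped in that order, and at 2.40 to 18.9 CPM in the other types, none of whose libraries reached the OPC range. Striatal D1 MSN had 97.9 and 97.3 CPM in WT against 118.9 and 96.9 CPM in the Setd1a+/- libraries, above D2 MSN at 70.1, 74.6, 90.6 and 68.7 CPM in the same order. D1 MSN overlapped neither D2 MSN nor striatal IN at 82.3 ± 9.52 CPM, while D2 MSN and IN overlapped. Striatal OPC had 62.1 ± 9.77 CPM, and NFO, Astro, Endo, Oligo and the neural stem cells and neuroblasts (NB) had means of 3.63 to 16.8 CPM. Striatal Micro had 56.5 ± 18.8 CPM against 6.57 ± 5.01 CPM in PFC Micro. Beside this, the summed level of 3 D1 MSN markers was 696 to 1014 CPM in striatal and 0 to 3.55 CPM in PFC Micro, none of the 3 being at 0 in the former; their part in the Ntrk3 value was not tested. Among EN subtypes the mean level of Ntrk3 was highest in SL-Myh7 at 190 ± 34.7 CPM, which overlapped the next subtype, DL-Pou3f1, at 157 ± 40.6 CPM, and it was lowest in DL-Tshz2 at 6.05 ± 1.94 CPM, or 8 UMIs in 304 cells. The next lowest subtype, SL-Cux2, was at 86.1 ± 16.4 CPM, and its lowest library at 70.2 CPM was above the highest DL-Tshz2 library at 8.55 CPM. DL-Tshz2 neurons were thus low in both Bdnf and Ntrk3. Their mean Ntrk2 was also the lowest of the subtypes, with libraries at 139 to 176 CPM. These overlapped SL-Myh7 at 136 to 233 CPM and lay below every library of the other subtypes.

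Ngfr was close to the limit of detection, with 53 UMIs in 23687 cells. PFC Oligo held 14 of the 27 PFC UMIs, at 2.90, 3.69, 6.37 and 1.43 CPM. Striatal IN held 8 UMIs, at 1.51 to 2.46 CPM in the 4 libraries. The other types with a UMI held 1 to 9 each, and of the EN subtypes DL-Tshz2 held 4 and SL-Myh7 1. No Ngfr UMI was found in PFC Endo and Micro, which allows up to 0.667 and 2.85 CPM, nor in striatal Micro, NFO and OPC or the other 5 EN subtypes, which allows at most 6.04 and 6.97 CPM per group. No order of types could be read at this depth, as all neighbouring types overlapped in the PFC.

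Sort1 was high in EN and in myelinating cells. Droplets of 10 UMIs or fewer held Sort1 at 54.2 CPM in the PFC and 42.2 CPM in the striatum. Several types had means below these levels, PFC Micro among them, and background UMIs in them were not told apart. PFC EN had 110.2, 89.8, 111.2 and 95.1 CPM, 102 ± 10.8 CPM. PFC Oligo had 90.4 and 84.97 CPM in WT against 91.8 and 80.0 CPM in the Setd1a+/- libraries, 86.8 ± 5.41 CPM, and overlapped EN. The next type, Micro, was at 44.3 ± 11.6 CPM and overlapped neither, and IN, Endo and Astro had means of 19.2 to 37.7 CPM. NFO and OPC, the earlier stages of the Oligo lineage, had 9.65 ± 4.36 and 8.31 ± 6.98 CPM. Sort1 was therefore low in progenitors and newly formed cells and high in mature Oligo, in both tissues. In the striatum Oligo had 104 ± 28.7 CPM, with 108.4 and 128.6 CPM in WT against 116.4 and 62.9 CPM in the Setd1a+/- libraries, NFO had 16.8 ± 6.98 CPM and OPC 9.78 ± 2.46 CPM. D1 and D2 MSN had 50.8 ± 4.80 and 44.4 ± 3.799 CPM and overlapped, and striatal IN, Micro, Astro, Endo and NB had means of 24.2 to 49.9 CPM. EN subtypes ran from 66.5 ± 3.26 CPM in DL-Foxp2 to 144 ± 47.7 CPM in SL-Myh7.

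Some EN held UMIs of both a ligand and its receptor. Of 2775 EN, 692 (24.9%) held UMIs of both Bdnf and Ntrk2, 176 Bdnf alone and 1206 Ntrk2 alone, and 945 (34.1%) held both Ntrk2 and Ntrk3. In D1 MSN, 354 of 3904 cells (9.07%) held both receptors, 746 Ntrk2 alone and 704 Ntrk3 alone. In PFC Astro, 429 of 554 cells (77.4%) held Ntrk2 alone, 15 (2.71%) both receptors and 4 Ntrk3 alone, as Ntrk3 was rare there. Bdnf and Ntrk2 were counted together in 1 D1 MSN and 0 D2 MSN. These shares are of cells with a captured UMI and rise with depth, so they describe the counts and not which cells express a gene. The overlap that separate detection of each gene would give was not computed.

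Across 18 cell groups, the 8 PFC and 10 striatal types, genes whose mean log2(CPM + 1) followed each member most closely were ranked by Pearson's r over 12786 genes. For Bdnf they were Dkkl1 (0.949), Neurod2 (0.910) and Slc17a7 (0.908), for Ntrk3 Rgs17 (0.957) and Rit2 (0.956), and for Ntrk2 Fmn2 (0.937), Kcnk1 (0.936) and Scg3 (0.935). Sort1 was nearest to Deptor (0.857), Ntf3 to Trim44 (0.886) and Ngfr to Dusp10 (0.825), the last 2 members resting on 67 and 53 UMIs. The groups of a tissue share libraries, so these are descriptions and were not tested.

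Loss of 1 Setd1a copy changed no member past the threshold in any cell type. UMIs of each type were summed per library and compared between genotypes with edgeR's quasi-likelihood test, and a gene was called at a Benjamini-Hochberg adjusted p, or FDR, under 0.05 with a fold change above 1.5 in the PFC and 2 in the striatum. In the 8 PFC types 15 of 48 member-by-type pairs had enough UMIs to be tested and 0 were called, where 0% of all 51145 gene tests were called and 869 (1.7%) had an unadjusted p under 0.05, none of them members. In the 6 EN subtypes tested 22 of 36 pairs were tested and 0 called, against 0% of 44783 tests, with 1 member among the 715 tests (1.6%) under an unadjusted 0.05. In the 10 striatal types 24 of 60 pairs were tested and 0 called, against 0.00544% of 73479 tests, with none among the 1922 (2.62%) under an unadjusted 0.05. All 4 striatal calls were in D2 MSN, which had 0.0397% of its genes called. DESeq2 called none of the members, and with no filter, where 0.0525% of the tests over PFC types were called, none was a member. With the replicate number as a block, 26, 11 and 79 genes were called in the 3 families, and no member was among them. The members' log2 fold changes ran from -0.70 to 0.60, -0.70 to 0.43 and -1.01 to 0.62, with median standard errors of 0.274, 0.275 and 0.286. These p-values measure the spread between libraries of pooled mice, of which there were 2 per genotype. In simulated data the spread between libraries was an assumed value, the same for every gene and not estimated from these libraries. Under that assumption this design recovered 13.2% of 2-fold and 92.2% of 4-fold changes for EN. For astrocytes of the PFC it recovered 0% and 71.0%, and for D1 MSN of the striatum 1.03% and 90.3%. A 2-fold change in D1 MSN sits at the striatal fold cutoff itself, which limits its recovery.

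**Figure D4:**
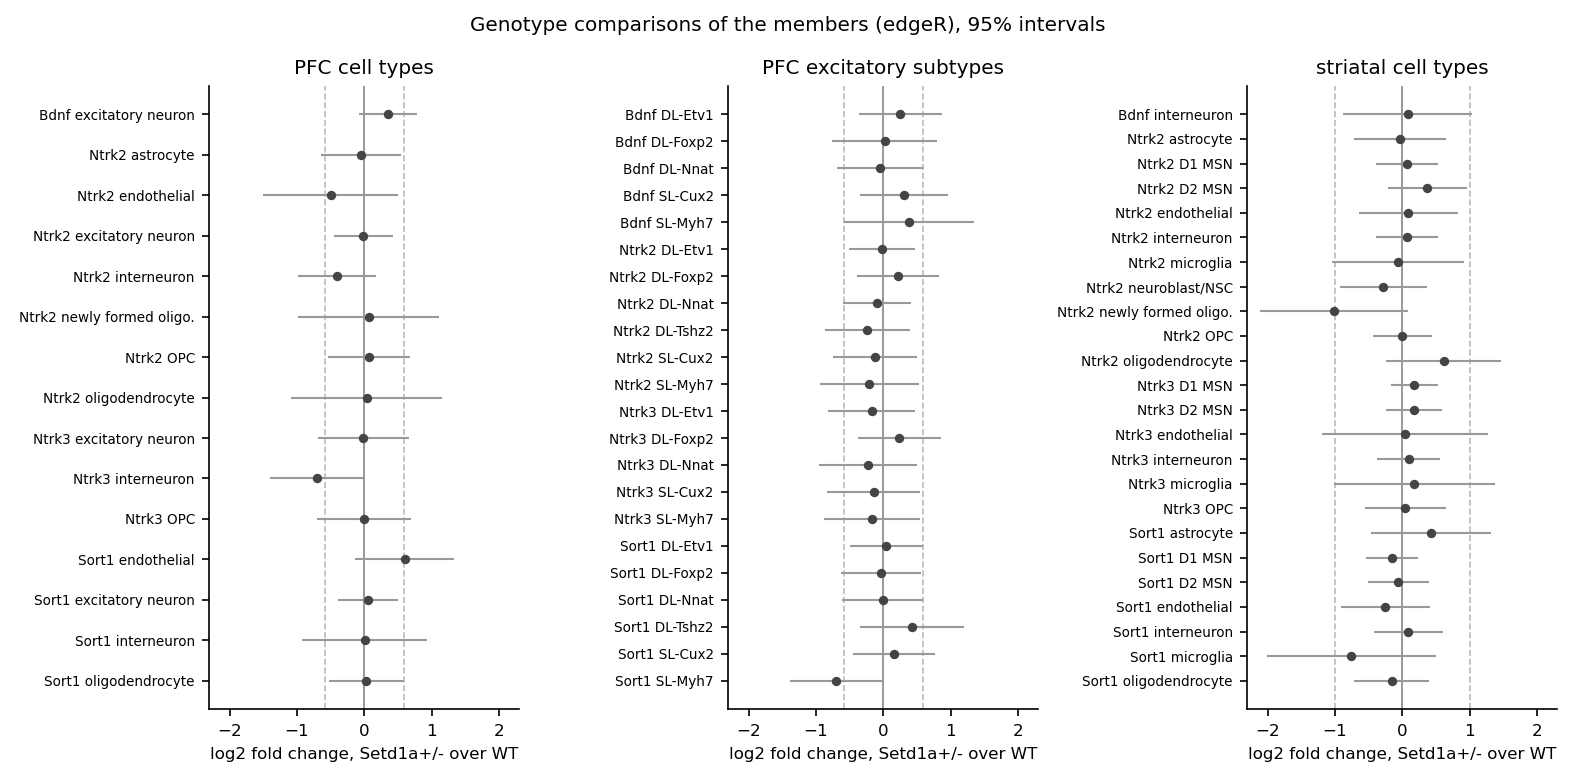
Log2 fold change of Setd1a+/- over WT (horizontal axes) with 95% intervals from edgeR for every member and cell group that passed the count filter, with dashed lines at the fold cutoffs. The interval for Sort1 in SL-Myh7 is the only one that does not cross 0, and no member was called.

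Bdnf in EN was at 94.1 and 97.8 CPM in WT against 124.7 and 119.2 CPM in the Setd1a+/- libraries, and so did not overlap. The log2 fold change was 0.35 (SE 0.17, 95% interval -0.08 to 0.79, edgeR unadjusted p = 0.0899, FDR = 1.00). In EN subtypes Bdnf differed by -0.04 to 0.39, with 4 of 5 values above 0. Ntrk3 in PFC IN was at 94.3 and 115.5 CPM in WT against 59.9 and 69.5 CPM in the Setd1a+/- libraries, again without overlap. Its log2 fold change was -0.70 (SE 0.31, 95% interval -1.41 to 0.00, edgeR unadjusted p = 0.0511). Sort1 in SL-Myh7 neurons, at 207.0 and 152.8 CPM in WT against 117.1 and 98.6 CPM in the Setd1a+/- libraries, was the only member with an unadjusted p under 0.05. There the log2 fold change was -0.70 (SE 0.30, edgeR unadjusted p = 0.0445, FDR = 0.999). All 3 were single values among many, and none was distinguishable from the spread between libraries after adjustment. With 2 libraries per genotype, groups often do not overlap even where nothing differs, and the share over all genes was not counted.

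Differences of similar size were measured for Sort1 and Ntrk2 in glia and Endo, none with an unadjusted p under 0.05. Sort1 in PFC Endo, counted from 133 UMIs, was at 25.6 and 25.2 CPM in WT against 33.8 and 43.4 CPM in the Setd1a+/- libraries (log2 fold change 0.60, SE 0.32, edgeR unadjusted p = 0.0959). Ntrk2 in striatal NFO, counted from 42 UMIs, was at 108.0 and 116.4 CPM in WT against 49.2 and 68.8 CPM in the Setd1a+/- libraries (log2 fold change -1.01, SE 0.50, edgeR unadjusted p = 0.0681). Sort1 in striatal Micro was at 46.2 and 64.4 CPM in WT against 26.8 and 44.8 CPM in the Setd1a+/- libraries (log2 fold change -0.75, SE 0.57). Ntrk2 in striatal Oligo was at 18.1 and 14.4 CPM in WT against 20.1 and 56.7 CPM in the Setd1a+/- libraries (0.62, SE 0.40), the difference lying mostly in 1 library. Ntrk2 in Astro, where it was highest, differed by -0.05 (95% interval -0.64 to 0.54) in the PFC and -0.04 (-0.72 to 0.65) in the striatum. In D1 MSN Ntrk3 differed by 0.18 (-0.16 to 0.53) and Ntrk2 by 0.07 (-0.40 to 0.53).

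Between tissues Ntrk2 differed in IN and in Endo, the 2 calls among 13 member-by-type pairs tested of 42 in the 7 types annotated in both. Over all genes 6.63% of 42759 tests were called between striatum and PFC at a fold change above 1.5, so 2 of 13 stands on a broad background, and 4 of the 13 had an unadjusted p under 0.05 against 20.3% of all tests. The share of genes called differed between types, from 0.0663% in NFO, 0.158% in OPC and 2.7% in Oligo to 6.06% in Endo, 10.4% in Astro, 11.8% in IN and 21.4% in Micro. Tissue, dissection, digestion time and library cannot be told apart in this comparison, as the study digested striatal tissue longer than PFC tissue. IN of the PFC had 408.7, 324.6, 277.4 and 268.1 CPM of Ntrk2 and IN of the striatum 178.8, 151.3, 204.4 and 132.9 CPM, without overlap. The striatal level was lower, with a log2 fold change of -0.90 (SE 0.18, 95% interval -1.28 to -0.53, edgeR FDR = 0.00280). Summed markers of excitatory neurons were at 44.4 to 127 CPM in PFC IN and 422 to 540 CPM in striatal IN, with none of the 4 at 0 in either, and the 3 markers of IN themselves at 2876 to 4350 CPM and 1016 to 1393 CPM. Markers of cholinergic neurons were at 3.98 to 13.3 CPM in PFC and 106 to 244 CPM in striatal IN, those of oligodendrocytes at 79.9 to 203 CPM and 227 to 530 CPM, and those of astrocytes at 146 to 209 CPM and 228 to 413 CPM. None of these 3 lists overlapped between tissues, whereas D1 MSN markers did, at 136 to 540 CPM and 151 to 303 CPM. The part of the cholinergic, oligodendrocyte and astrocyte markers in the Ntrk2 difference was not tested. Without the cells holding a UMI of Slc17a7, Neurod6 or Neurod2, an alternative added after the data had been seen, the Ntrk2 difference was -1.03 (SE 0.19, FDR = 0.00190), and it was called in every alternative run.

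Ntrk2 in Endo was at 22.5, 15.9, 12.0 and 16.9 CPM in the PFC and 55.0, 29.6, 49.0 and 36.4 CPM in the striatum, without overlap. The striatal level was higher, with a log2 fold change of 1.37 (SE 0.28, 95% interval 0.77 to 1.97, edgeR FDR = 0.0114). Markers of MSN and IN moved with it. The 3 D1 MSN markers were all at 0 in PFC Endo and summed to 76.0 to 406 CPM in striatal Endo, the 3 D2 MSN markers to 25.5 to 27.8 and 151 to 259 CPM, and the 3 IN markers to 3.51 to 7.51 and 71.6 to 161 CPM. Those of neural stem cells and neuroblasts did not overlap either, at 1.33 to 7.24 and 22.3 to 36.4 CPM, whereas those of excitatory neurons overlapped, reaching 51.7 CPM in PFC and 23.0 CPM in striatal Endo, with 2 of the 4 at 0 in the latter. Markers of astrocytes, the type in which Ntrk2 was highest, overlapped at 248 to 457 CPM in PFC and 274 to 659 CPM in striatal Endo, as did those of endothelial cells at 6701 to 8405 CPM and 5319 to 9710 CPM. Without the cells that held any of 11 neuronal marker genes, which left 84.6 to 90.6% of PFC and 58.4 to 70.9% of striatal Endo, the difference was 1.20 (SE 0.36) and no longer called (FDR = 0.130). It was also not called without striatal WT library 1 (1.19, FDR = 0.0651).

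**Figure D5:**
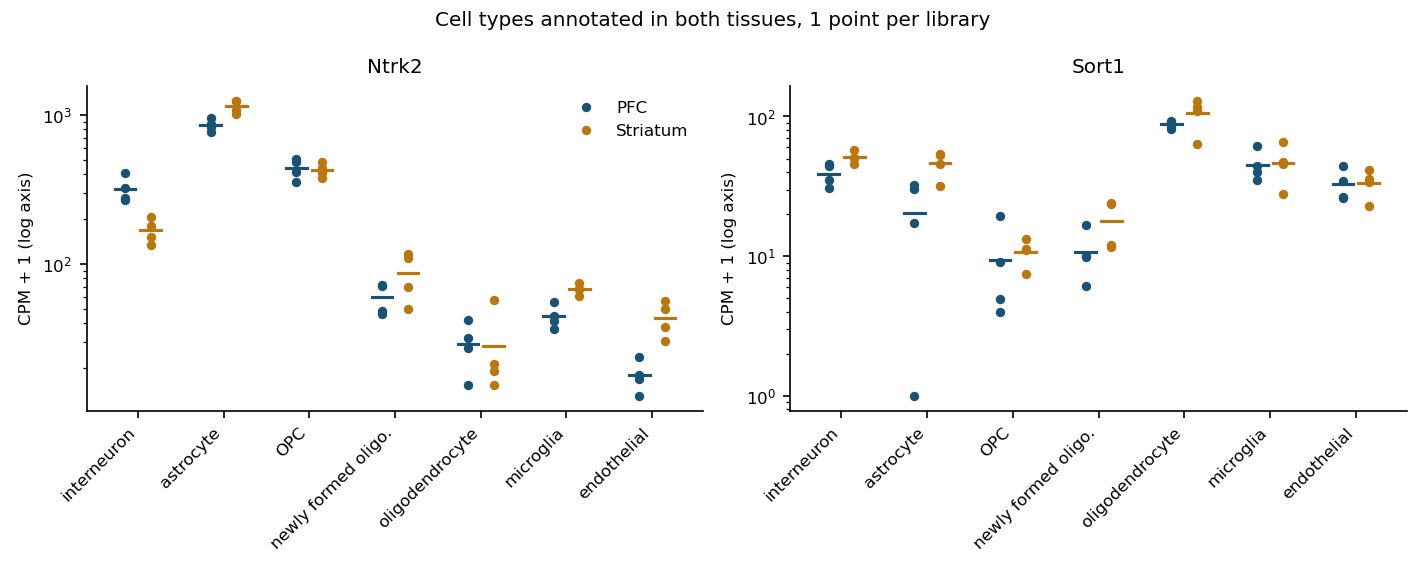
Levels of Ntrk2 and Sort1 (CPM + 1, log axes) in the 7 cell types annotated in both tissues, 1 point per library coloured by tissue with a line at the mean. Ntrk2 of interneurons is lower and Ntrk2 of endothelial cells higher in the 4 striatal libraries than in the 4 PFC libraries, with no overlap.

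The other 11 pairs were not called. Ntrk2 did not differ detectably in OPC, with a log2 fold change of 0.00 (95% interval -0.33 to 0.33), which is inside the fold cutoff. In Astro Ntrk2 differed by 0.36 (-0.04 to 0.76, FDR = 0.249) and Sort1 by 0.89 (0.01 to 1.77, FDR = 0.194). Sort1 in PFC Astro was at 31.4, 29.3, 0 and 16.3 CPM, and in striatal Astro at 30.9, 44.8, 51.8 and 53.1 CPM. The value of 0 came from 63 cells and allows up to 25.6 CPM. The 3 ependymal markers summed to 0 to 3.67 CPM in PFC Astro and 332 to 1402 CPM in striatal Astro, and the 4 astrocyte markers to 14990 to 17141 CPM and 7369 to 13622 CPM, neither with overlap. Markers of D1 MSN also differed without overlap, at 0 to 3.67 and 52.9 to 387 CPM. So did those of D2 MSN, at 0 to 8.14 and 118 to 542 CPM. Markers of IN differed likewise, at 4.83 to 25.7 and 47.3 to 196 CPM. Those of excitatory neurons overlapped, at 0 to 59.7 CPM in PFC and 19.15 to 53.1 CPM in striatal Astro. Those of neural stem cells and neuroblasts also overlapped, at 34.2 to 60.3 and 57.5 to 159 CPM. Without the cells holding neuronal markers Ntrk2 in Astro differed by 0.49 (FDR = 0.121), and Sort1 had too few UMIs to be tested. The part of the ependymal and astrocyte markers in the Astro differences was not tested. Sort1 in Oligo differed by 0.40 (0.01 to 0.79, FDR = 0.281). Sort1 in IN differed by 0.42 (FDR = 0.242) and by -0.33 without the cells holding excitatory markers, and neither was called. The part of those cells in its direction was not tested. Bdnf, Ntf3 and Ngfr had too few UMIs to pass the count filter between tissues. With no filter Bdnf in IN was called higher in the striatum (2.78, SE 0.49, FDR = 6.03e-07), where nearly all its UMIs were in the cells with excitatory markers described above, and Ntf3 and Ngfr were not called.

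Genotype differences were also compared between tissues. Of 18 member-by-type pairs tested of 42, 0 passed the interaction test, against 0% of 49915 tests over all genes. The largest value, of Sort1 in Astro, was 1.76 (SE 0.83, edgeR unadjusted p = 0.0493, FDR = 1.00). It was 7.14 without the other Setd1a+/- library of the PFC, which leaves the library at 0 alone in its group, and 1.22 without the library at 0. Over all genes 1103 tests (2.21%) were under an unadjusted 0.05, and this was the only member among them.

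The pathway around the members was described from 5 lists, of which 88 genes were found. Without the replicate block no gene of these lists was called between genotypes. That fit made 321 list tests over PFC types, 334 over EN subtypes and 486 over striatal types. With the block more genes were called over all genes, and calls on the lists were not read out. Between tissues 36 of 287 tests were called, against 6.63% of all genes. Genes induced downstream of TrkB had 13 of 48 tests called (27.1%), 11 of them higher in the striatum, pro-neurotrophin processing had 6 of 29 (20.7%), partners of p75NTR 7 of 43 (16.3%), adaptors and kinases of the Trk receptors 10 of 157 (6.37%) and the other ligands and receptors 0 of 10. All calls for processing genes and p75NTR partners were higher in the striatum, and those for adaptors were 6 higher and 4 lower. The induced genes include immediate early genes such as Fos and Junb, and a part of TrkB in their calls was not tested. The median log2 difference was 0.28 for the induced genes, 0.04 for processing, 0.10 for p75NTR partners, 0.12 for adaptors and -0.05 for the other ligands and receptors, beside -0.02 for all genes (the median over the types). In IN the striatal level was higher for Arc, an activity-induced synaptic protein, by 3.41 (SE 0.49), for Egr3, an immediate early transcription factor, by 2.80 (SE 0.44), for Nrn1, which encodes the neurite-promoting protein neuritin, by 3.48 (SE 0.41) and for Lingo1, a p75NTR co-receptor, by 2.83 (SE 0.32) on the log2 scale. Kidins220, a scaffold of Trk receptors, was lower there by -0.59 (SE 0.18), and Pcsk2, a proprotein convertase, was higher by 1.42 (SE 0.25). Without the cells holding neuronal markers, 11 of the 27 calls outside Micro were still called, 8 were no longer called and 8 had too few UMIs to be tested. For IN only cells holding Slc17a7, Neurod6 or Neurod2 were left out. That refit made 14 calls in 210 list tests, so some were new. The share of all genes called in that refit is not given here. Among the new calls was Sorl1, of the other ligands and receptors, in Astro (1.23, FDR = 0.0423). In IN 3 of 12 calls were kept, those of Crtc1, Arhgdia and Serpine2. Arc, Egr3, Nrn1 and Lingo1 of IN were among those with too few UMIs once these cells were gone, and Pcsk2 was at 0.53 (FDR = 0.234). Some calls were lost with little change in value: Kidins220 in IN was at -0.51 (FDR = 0.0987), Junb in IN at 1.02 (FDR = 0.0564) beside 1.18 before, and Sos1, a Ras exchange factor, in Endo at -0.57 (FDR = 0.245) beside -0.64 before. Of the genes induced downstream of TrkB, 8 were still tested in IN, and 7 of them then had values below 0. This count leaves out Arc, Egr3 and Nrn1, and the share of all genes below 0 is not given here. The part of the cells left out in these values was not tested. Homer1, a synaptic scaffold called at 0.81, was at -0.30 (FDR = 0.418), and Egr1, at 0.07 before, was called lower at -0.69 (FDR = 0.0411). Homer1 and Egr1 of IN are given because their values turned, and Junb and Sos1 because theirs did not, a choice made after seeing them.

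In Astro the adaptor subunit Pik3r1 was lower in the striatum by -1.37 (SE 0.21), Akt2 by -0.81 (SE 0.24) and the MAP kinase phosphatase Dusp6 by -1.28 (SE 0.30). Bex3 and Maged1, which bind the p75NTR intracellular domain, were higher by 1.31 (SE 0.20) and 1.41 (SE 0.31), and carboxypeptidase E (Cpe), a sorting receptor for BDNF, by 1.19 (SE 0.20). Ependymal and astrocyte markers differed between the same groups, as given above, and their part in these calls was not tested. The Astro differences were called again without the cells holding neuronal markers, except for Akt2 (-0.76, FDR = 0.0678). In OPC Nrn1 was lower by -4.92 (SE 0.56), the largest difference called on the lists, and by -4.31 (FDR = 0.00228) without the cells holding neuronal markers. D1 MSN markers summed to 61.3 to 79.0 CPM in PFC OPC and 190 to 240 CPM in striatal OPC. D2 MSN markers summed to 0 to 5.92 and 57.8 to 177 CPM, and IN markers to 24.1 to 59.2 and 73.3 to 210 CPM. Markers of excitatory neurons overlapped, at 15.0 to 88.7 CPM in PFC and 3.86 to 17.5 CPM in striatal OPC. In Oligo the immediate early genes Fos and Junb were higher by 2.16 (SE 0.28) and 1.98 (SE 0.44). D1 MSN markers summed to 2.86 to 25.5 CPM in PFC Oligo and 65.9 to 283 CPM in striatal Oligo. D2 MSN markers summed to 0 to 7.39 CPM and 70.6 to 327 CPM. IN markers overlapped, at 3.48 to 36.9 CPM and 33.4 to 164 CPM. Markers of excitatory neurons overlapped too, at 20.4 to 88.7 CPM and 5.14 to 56.7 CPM. Without the cells holding neuronal markers Fos was still called (2.08, FDR = 0.00207), and Junb had too few UMIs to be tested. Several calls in Micro, such as Camk4 at 3.41 and Homer1 at 2.67, stood beside the D1 MSN marker levels given above, and their part was not tested.

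Ntf5, which encodes a further TrkB ligand, held 9 UMIs in EN (0.454 ± 0.141 CPM).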

How the data were processed

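The authors deposited, for each of 8 libraries, a matrix of raw UMI counts per gene and barcode, with a table of annotated cells giving cell type and, for PFC EN, subtype; their gene-by-cell expression tables were not used. The submitters' processing notes name Cell Ranger 3.0.2, Seurat 3.2.0 and mm10. Every annotated cell had 800 genes or more and no more than 10% mitochondrial UMIs, and no further filter or doublet call was applied. Counts per gene, as used here, cannot separate start sites of Bdnf or isoforms of Ntrk2, and Bdnf, Ntrk2, Ntrk3 and Sort1 overlap antisense genes.

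UMI counts were summed per library and cell type. Sums were tested with edgeR 4.0.16 (limma 3.58.1, R 4.3.3) by quasi-likelihood, with TMM scaling, filterByExpr at a minimum count of 10 and Benjamini-Hochberg adjustment over all genes of a group, and with DESeq2 1.42.0 as an alternative. The study's own test, which takes cells as replicates, was not run. Groups needed 10 cells in every library, so DL-Pou3f1 was not tested. Other alternatives were library size scaling, no filter, the replicate block (genotype comparisons only), each library left out, and, chosen after seeing the data, leaving out cells that held a neuronal marker. Each biological replicate of the study held 1 WT and 1 Setd1a+/- sample; deviations of same-numbered libraries correlated at 0.537 in the PFC (10995 genes) and 0.678 in the striatum (11424 genes). The steps were tested on simulated data. Levels, thinning (1000 UMIs) and likeness used Python 3.11.15, numpy 2.4.6, scipy 1.17.1, pandas 2.3.3 and matplotlib 3.10.9. Limits for a count of 0 take 3 UMIs and cover counting error only.

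The members and the pathway lists were chosen with earlier results of these data known. The 6 members were described in all groups, by value or by range and count. Of a pathway list, genes called between genotypes or tissues were named, at most the 3 of largest difference per list and group, with Ntf5 always, and for each member genes of highest r among those with at least 200 UMIs. Some genes that this rule names are not reported here.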

Additional observations from a re-analysis of the deposited data

Results flagged for a closer look

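Members were counted in droplets of 10 UMIs or fewer, which hold no cell and enter no comparison, above the level that a count of 0 allows. Pooled over the 4 PFC libraries (1679064 UMIs), Bdnf was at 26.2 CPM, Ntrk2 at 168.6 CPM, Ntrk3 at 53.01 CPM and Sort1 at 54.2 CPM. Pooled over the 4 striatal libraries (1988621 UMIs), Ntrk2 was at 123.7 CPM, Ntrk3 at 66.88 CPM and Sort1 at 42.24 CPM. Bdnf in striatal droplets of this size was at 1.01 CPM, from 2 UMIs.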

How the results depend on the processing

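No member was called between genotypes, or in the interaction, under any alternative that kept all libraries. Leaving out a library leaves 1 of its genotype in that tissue, so the spread within that group is not measured there. Over all genes the genotype calls were 0 in PFC types, 0 in EN subtypes and 4 in striatal types, and 63, 28 and 110 with no filter, where 26 interaction and 6957 tissue calls were made; DESeq2 made 1 call in PFC types. With the replicate block, which follows the pairing of samples, the calls were 26, 11 and 79, no member among them. The block was run for the genotype comparisons only, and calls on the pathway lists were not read out with it. Without the cells holding neuronal markers the striatal genotype calls were 10. Leaving out each library gave 25 to 122, 7 to 306 and 67 to 402 genotype calls, 0 to 4 interaction calls and 1638 to 3989 tissue calls, the last under the reported count by over 1.5 times without PFC WT library 1 or either striatal WT library; the highest genotype counts came without PFC Setd1a+/- library 2 (122 and 306) and without striatal Setd1a+/- library 1 (402). Members called between tissues were 5 with no filter (Bdnf in IN, Ntrk3 in Endo and Micro beside Ntrk2 in IN and Endo), 1 without the cells holding neuronal markers, and 2 to 4 with a library left out, where Bdnf in IN and Ntrk3 in Micro came in without any 1 of the PFC libraries, Bdnf in IN also without striatal WT library 2 and Ntrk3 in Micro also without striatal WT library 1. With no filter 6.16% of 112942 tissue tests over all genes were called. The members' directions turned only for values that were not called. On the pathway lists Homer1 in IN, called between tissues, was -0.30 without the cells holding excitatory markers. Sort1 in IN between tissues was -0.33 without the cells holding excitatory markers. Ntrk3 in IN was 0.052 with no filter and -0.18 to 0.17 with a library left out, and Ntrk2 in OPC was -0.037 with library size scaling, -0.0030 without the cells holding neuronal markers and -0.10 to 0.073 with a library left out. Bdnf in striatal IN between genotypes was -0.53 to 1.27 with a library left out. The cause was not tested for any of these. Depth limits Ntf3 and Ngfr, which passed the count filter in no reported comparison and were called in no alternative that tested them.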

Other observations

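Without the replicate block no gene induced downstream of TrkB was called between genotypes. These genes were among the list tests with an unadjusted edgeR p under 0.05. They made 5 of 52 tests in PFC types (4 higher in Setd1a+/-), 13 of 72 in EN subtypes (12 higher) and 15 of 80 in striatal types (14 higher), against 1.7%, 1.6% and 2.62% of all genes. The lowest FDR was 0.573, for Egr2, an immediate early transcription factor, in D2 MSN (log2 fold change 1.22, SE 0.21). Fos in striatal IN was at 1.22 (SE 0.26) and in DL-Tshz2 at -1.25 (SE 0.42), and Nr4a1, an orphan nuclear receptor, was at 1.20 (SE 0.29) in DL-Nnat and 1.12 (SE 0.32) in DL-Foxp2. The same few genes recur across groups that share libraries, and these examples were chosen after their values were seen. The list includes immediate early genes such as Fos, and a part of TrkB in these values was not tested.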
